A study of Mus musculus with 4 samples.

Results

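The 6 genes described here are Spic and 5 surface or secreted markers of red pulp macrophages: Vcam1, Itgad, Cd163, Cd5l and C6. They were taken by name as the genes whose symbol stands alone at a probe set, 6 of the 19938 genes measured, and together they had 7 probe sets. The data were signals from 4 microarrays of mouse bone marrow cells cultured with 20 ng/ml GM-CSF, which drives marrow progenitors into macrophages and dendritic-type cells. After 6 days the cultures were treated with 40 µM heme (written µm in the labels) or with vehicle, a solution of NaCl and NH4OH, and RNA was taken 24 hours later from the cells that still adhered. The 4 groups were Bach1 (-/-) cells with heme, Bach1 (-/-) cells with vehicle, Bach1 (+/+) cells with heme and Bach1 (+/+) cells with vehicle, all on the B6 background. The labels give neither the age nor the number of the mice. With 1 array in each group, the differences below have no replicate behind them, and they carry neither a p-value nor an error. The label Bach1 (-/-) could not be checked, because the Bach1 probe set read 204 and 211 on the arrays labelled knockout with heme and with vehicle, against 264 and 212 in wild type with heme and with vehicle. Whether this probe set covers the deleted exons was not stated in the labels. The arrays are therefore called labelled knockout.

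Red pulp macrophages of the spleen engulf old red blood cells, break down their heme and return the iron to the blood. Spic encodes an Ets-family transcription factor that these macrophages need in order to form. Bach1 is a repressor that sits on DNA with small Maf proteins at antioxidant response and Maf recognition elements, and heme binds it and releases it. The title of the series names the release of Spic from Bach1 by heme as its subject. The other 5 genes are commonly used to recognise the mature cell. Vcam1 is an adhesion molecule for integrins that contain Itga4. Itgad is an integrin alpha chain that pairs with Itgb2. Cd163 takes up hemoglobin, Cd5l is a secreted protein of the cysteine-rich scavenger family, and C6 is a component of the terminal complement complex.

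Spic was high on 3 arrays and low on the fourth. Its signal, on the linear scale after the authors' normalization, was 679 on the labelled knockout array with heme, 298 on the labelled knockout array with vehicle, 429 on the wild-type array with heme and 17.0 on the wild-type array with vehicle. The wild-type vehicle array alone was low, and the highest array stood 39.9-fold above it. Ordered by level, the ratios between neighbouring arrays were 1.58 (labelled knockout heme over wild-type heme), 1.44 (wild-type heme over labelled knockout vehicle) and 17.5 (labelled knockout vehicle over wild-type vehicle). On the log2 scale the first 2 of these steps were 0.66 and 0.53, against robust SDs of 0.24 and 0.28 for all genes between the same arrays. With 1 array a group, whether the upper 3 arrays differ from each other at Spic is not known. In a bulk culture, fewer cells that express a gene and less RNA per cell cannot be told apart.

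The sequence just before and after the start site is shown for Spic, whose signal differed most, and for Cd5l, which carries a pair of Maf half-sites. The windows come from RefSeq, assembly GRCm38.p6, and run from 250 bases before to 50 bases after the start. Of the 6 genes, Spic, Cd163, Cd5l and C6 matched a window. The Spic window lies at chr10:88682974-88683273 on the minus strand and the Cd5l window at chr3:87357631-87357930 on the plus strand. Capitals mark the motif matches.
Spic: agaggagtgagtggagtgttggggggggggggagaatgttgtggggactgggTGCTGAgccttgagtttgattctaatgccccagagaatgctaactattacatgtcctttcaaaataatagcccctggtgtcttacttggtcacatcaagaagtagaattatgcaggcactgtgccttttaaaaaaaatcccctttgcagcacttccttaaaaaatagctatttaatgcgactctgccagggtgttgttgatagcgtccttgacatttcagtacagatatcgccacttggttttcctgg
Cd5l: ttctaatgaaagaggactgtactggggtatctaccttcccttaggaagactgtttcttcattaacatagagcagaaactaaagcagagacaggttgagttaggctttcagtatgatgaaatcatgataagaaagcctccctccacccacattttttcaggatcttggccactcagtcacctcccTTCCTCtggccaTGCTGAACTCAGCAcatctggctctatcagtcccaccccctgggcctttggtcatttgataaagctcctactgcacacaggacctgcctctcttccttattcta
Searched on both strands were the antioxidant response element core TGACNNNGC, the AP-1 type core TGAGTCA, the PU box GAGGAA and the Maf half-site TGCTGA, where N is any base. The core and the half-site can overlap each other. The Spic window held 1 Maf half-site, at bases 53 to 58, and no match to the other motifs, which says only that these letters are not in this window. Of 32851 promoter windows of the same length, 19.5% held a Maf half-site, 12.4% the antioxidant response element core, 5.2% the AP-1 type core and 28.3% the PU box. The Cd5l window held a PU box at bases 185 to 190 and TGCTGAACTCAGCA at bases 197 to 210, which is a pair of Maf half-sites that face each other 2 bases apart. That arrangement, TGCTGANNTCAGCA, stood in 2 of the 32851 windows, and the form with 1 base between, TGCTGANTCAGCA, also in 2. The windows of Cd163 and C6 held none of these motifs. The half-site and the pairs were added to the search after the windows had been read, and a match shows neither binding nor a cause.

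Comparing heme with vehicle asks what heme does to the red pulp genes. In wild type, Spic read 429 with heme against 17.0 with vehicle, which is 25.2-fold higher and a log2 difference of 4.66. It ranked first of 10772 genes at level, which are those whose brighter array reached a signal of 31.0, the median of all values. In the labelled knockout Spic read 679 with heme against 298 with vehicle, 2.28-fold higher, and ranked 71 of 10843. Of the 6 genes, 2 were at level, Spic and Itgad. Spic was the 1 gene of the 6 to be at least 2-fold higher, in wild type (1.17% of all genes at level) and also in the labelled knockout (1.2%). None was 2-fold lower, against 0.891% of genes at level for wild type and 0.452% for the labelled knockout.

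Comparing the labelled knockout with wild type asks how the same genes differ by genotype label. In vehicle, Spic read 298 on the labelled knockout array against 17.0 in wild type, 17.5-fold higher and first of 10859 genes at level. Spic was again the 1 gene of the 6 at 2-fold, higher, as were 0.525% of all genes at level, and 0 were lower, as were 1.14%. With heme in both cultures, Spic read 679 on the labelled knockout array against 429 in wild type, 1.58-fold higher, and 0 of the 6 genes reached 2-fold, where 0.519% of genes at level were 2-fold higher and 0.973% lower. The heme response of Spic was smaller in the labelled knockout than in wild type by 3.47 on the log2 scale (a difference of -3.47). It was the lowest of 11155 genes at level in this difference of responses, a rank it lost to Hmox1 (-2.22 against -2.13 for Spic) with 32 added to each signal, and it was the 1 gene of the 6 that was 2-fold below 0, where 0.879% of genes at level were. These comparisons share arrays: the heme response in wild type, the vehicle comparison of the genotypes and the difference of responses all use the wild-type vehicle array.

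The size of these differences depends on a low value, while Spic kept the first rank for heme in wild type and for the labelled knockout in vehicle with 32 added to each signal. On the wild-type vehicle array, 21 of 45 genes of unrelated tissues, such as liver, muscle, eye and testis genes, read as high as Spic or higher, and on the other 3 arrays 0 of 45 did. Probe sets differ in how brightly they report, so this places a signal near the bottom of the scale without showing that a gene is off. Adding 32 to each signal before log2 left a 9.40-fold difference of Spic between heme and vehicle in wild type, and a 6.73-fold difference between labelled knockout and wild type in vehicle. The 2.28-fold and 1.58-fold differences became 2.15-fold and 1.54-fold.

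**Figure D1:**
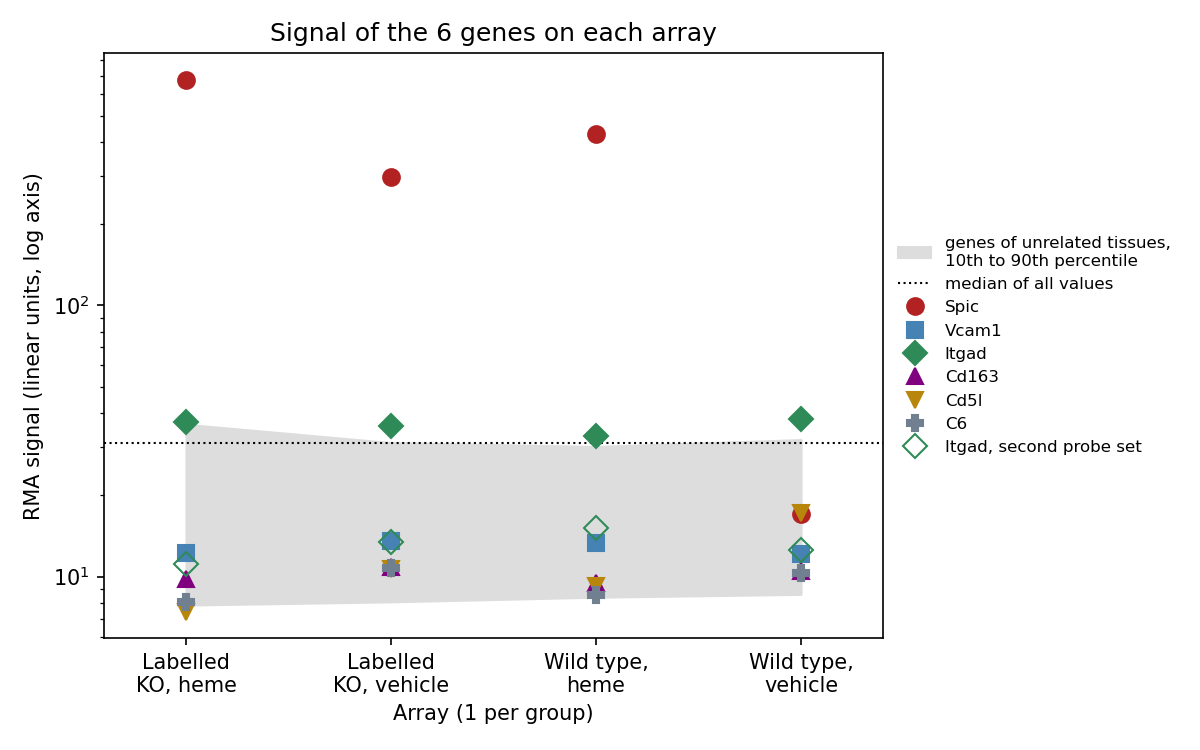
Signal of each of the 6 genes (linear units on a log axis) on the 4 arrays, 1 point per array, with the second probe set of Itgad as open symbols; the grey band spans the 10th to the 90th percentile of 45 genes of unrelated tissues, and the dotted line is the median of all values (31.0). Spic stands between 298 and 679 on 3 arrays and at 17.0 in wild type with vehicle, while the other 5 genes stay at 38.1 or below on every array.

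The 5 marker genes stayed within 38.1 on every array, and all but Itgad lay below the median of all values. Vcam1 read 12.3 and 13.5 on the labelled knockout arrays with heme and with vehicle, against 13.3 and 12.1 on the wild-type arrays with heme and with vehicle. The highest value was 1.11-fold above the lowest, and the genotypes overlapped. Between 27 and 28 of the 45 genes of unrelated tissues read as high or higher on each array.

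Itgad had 2 probe sets whose small differences had opposite signs. The brighter one read 37.2 and 35.9 on the labelled knockout arrays with heme and with vehicle, against 32.8 and 38.1 in wild type with heme and with vehicle. It was the only marker of the 5 to reach the median of all values, which it did on each array, and 4 of the 45 genes of unrelated tissues read as high or higher. Its highest and lowest arrays, both wild type, differed by 1.16-fold. The dimmer probe set read 11.1 and 13.4 on the labelled knockout arrays with heme and with vehicle, against 15.0 and 12.5 in wild type with heme and with vehicle. With heme in wild type the brighter probe set was lower by a log2 difference of -0.21 and the dimmer one higher by 0.27, and in the labelled knockout the differences were 0.05 and -0.26. The annotation ties the brighter probe set to 1 accession and the dimmer to 2, and no direction is given for Itgad.

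Cd163 read 9.82 and 10.9 on the labelled knockout arrays with heme and with vehicle, against 9.51 and 10.5 in wild type with heme and with vehicle. Its log2 difference between heme and vehicle was -0.15 in the labelled knockout and -0.14 in wild type, inside the robust SD of 0.26 for all genes in each comparison. C6 read 8.03 and 10.7 on the labelled knockout arrays with heme and with vehicle, against 8.57 and 10.3 in wild type with heme and with vehicle. The log2 differences of C6 between heme and vehicle were -0.42 in the labelled knockout and -0.27 in wild type, both beyond that robust SD. With 32 added to each signal they were -0.09 and -0.06. On each array, between 31 and 39 of the 45 genes of unrelated tissues read as high as Cd163 or higher. For C6 it was between 32 and 40.

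Cd5l varied most among the 5 markers. It read 7.42 and 10.7 on the labelled knockout arrays with heme and with vehicle, against 9.21 and 17.1 in wild type with heme and with vehicle. The wild-type vehicle array, where Spic was lowest, had the highest Cd5l signal, 1.60-fold above the next array. Even there, 21 of the 45 genes of unrelated tissues read as high as Cd5l or higher, and between 32 and 42 did on the other arrays. The heme minus vehicle difference was -0.53 in the labelled knockout and -0.89 in wild type on the log2 scale, and the labelled knockout differed from wild type by -0.68 in vehicle and -0.31 with heme. In wild type the 45 genes of unrelated tissues spanned log2 differences from -0.37 to 0.41 with heme, and in the labelled knockout from -1.26 to 0.70. None of the Cd5l differences reached 2-fold, and no array reached the median of all values. With 32 added to each signal the wild-type response was -0.25 and that of the labelled knockout -0.12.

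**Figure D2:**
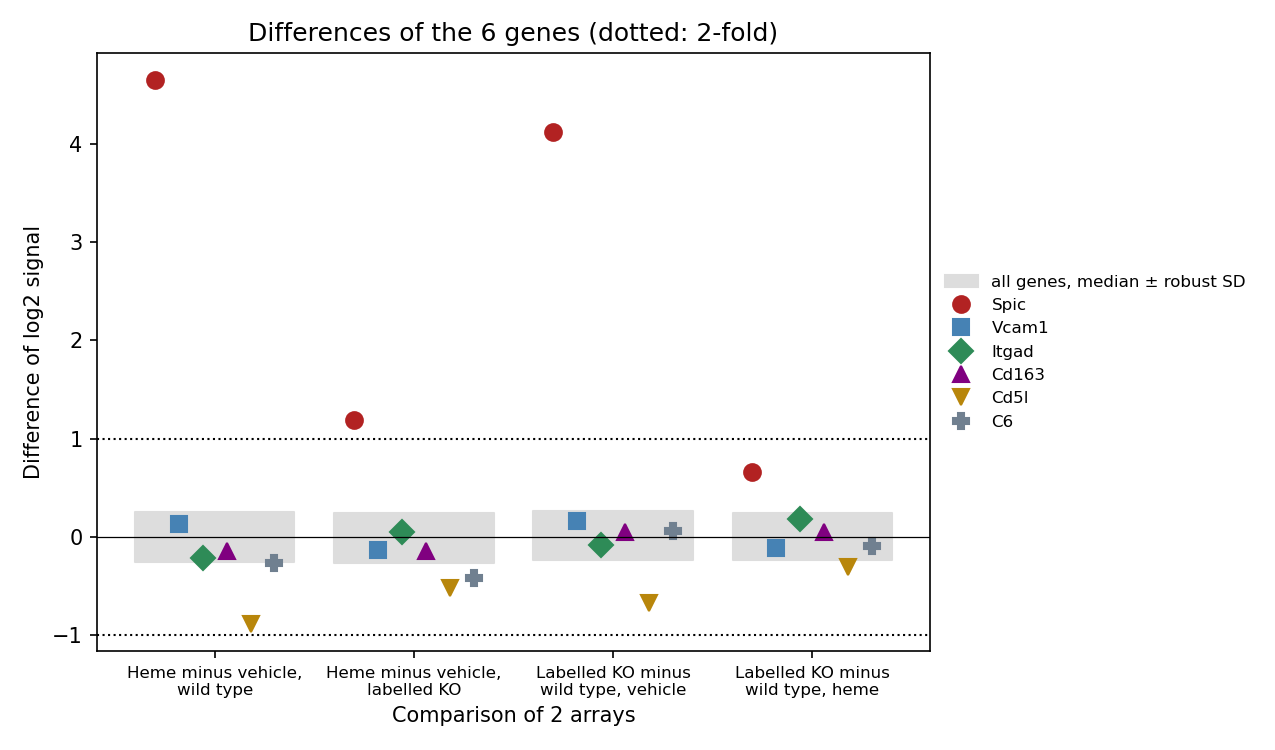
Difference of log2 signal of the 6 genes in 4 comparisons of 2 arrays; grey boxes show the median ± robust SD of all 19938 genes and dotted lines mark 2-fold. Spic lies at 4.66, 1.19, 4.13 and 0.66 from left to right, and the other 5 genes lie between -0.89 and 0.18.

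Over the 6 genes the median log2 difference was -0.18 for heme in wild type and -0.14 for heme in the labelled knockout, and 0.05 and -0.02 for labelled knockout over wild type in vehicle and with heme. Over all genes these 4 medians lay between -0.02 and 0.01. With heme, 2 of the 6 were above 0 and 4 below in each genotype. Both heme arrays lay below both vehicle arrays at 3 of the 6 genes, Cd163, Cd5l and C6, as they did at 19.7% of all 19938 genes, and above both at 1, Spic, as at 17.8%.

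The wider programme of red pulp macrophages was read from 23 measured genes that are not among the 6, of which 22 or 23 were at level in each comparison. With heme in wild type, 3 were at least 2-fold higher and 2 lower, against 1.17% and 0.891% of all genes at level. The median of the 23 was -0.24, against -0.004 over all genes. The 3 were Treml4, a TREM-family receptor, Slc40a1, the iron exporter ferroportin, and Hmox1, the enzyme that breaks heme down. The 2 lower genes were Siglec1, a sialic acid-binding receptor (-1.10), and Axl, a receptor for dying cells (-1.01). In the labelled knockout 2 of 23 were 2-fold higher with heme, Treml4 and the biliverdin reductase Blvrb (1.26), and 0 were lower. The shares of all genes at level were 1.2% and 0.452%. In vehicle 3 of 23 were 2-fold higher in the labelled knockout, Slc40a1, Hmox1 and Treml4, and with heme 3 were, Treml4, Slc40a1 and Siglec1. Of all genes at level, 0.525% were 2-fold higher in vehicle and 0.519% with heme.

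Treml4 read 328 and 39.3 on the labelled knockout arrays with heme and with vehicle, against 118 and 16.4 in wild type with heme and with vehicle. Its heme response on the log2 scale was 3.06 in the labelled knockout and 2.85 in wild type, a difference of responses of 0.21 against -3.47 for Spic. With 32 added to each signal these responses were 2.33 and 1.63, a difference of 0.70 against -2.13 for Spic, and its difference between the genotypes in vehicle was 0.56, under 2-fold. Slc40a1 and Hmox1 had differences of responses of -1.84 and -2.24, which were -1.33 and -2.22 with 32 added. The pan-macrophage gene Adgre1, which encodes F4/80, read 937 and 837 on the labelled knockout arrays with heme and with vehicle and 753 and 764 in wild type with heme and with vehicle, and the mannose receptor Mrc1 read 874 and 1120 against 539 and 975.

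**Figure D3:**
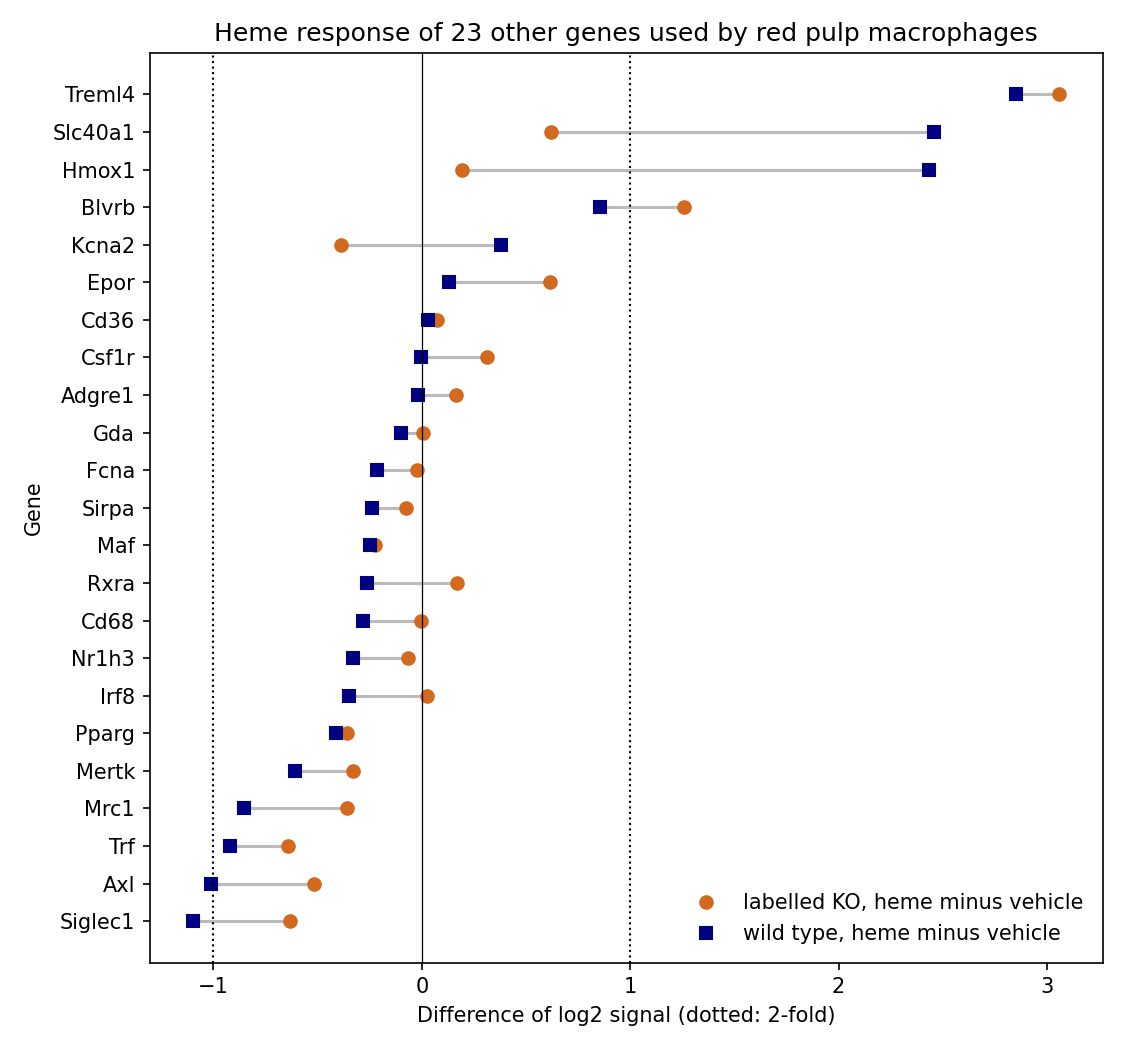
Heme minus vehicle difference of log2 signal for 23 further genes of red pulp macrophages, as circles for the labelled knockout and squares for wild type, ordered by the wild-type value; dotted lines mark 2-fold. Treml4 lies at 3.06 and 2.85, while Slc40a1 (0.62 and 2.46) and Hmox1 (0.19 and 2.44) lie far apart.

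Partners and relatives of each gene were read next. Of 24 Ets-family factors other than Spic, between 16 and 18 were at level in each of the 4 comparisons of 2 arrays. In these comparisons 0 were 2-fold higher, and 1 was lower in 1 of them, Spib with heme in the labelled knockout (-1.11). In each direction of these comparisons, between 0.452% and 1.2% of all genes at level passed 2-fold. Spi1, which encodes PU.1, a factor of the same Ets subfamily as Spic, read 650 and 601 on the labelled knockout arrays with heme and with vehicle, against 727 and 747 in wild type with heme and with vehicle. Of 17 integrin and adhesion genes around Vcam1 and Itgad, 13 or 14 were at level in each comparison. Of these, 1 passed 2-fold, Itgb5 with heme in wild type (-1.03). Itgb2, the partner of Itgad, read between 2079 and 2812 on the 4 arrays, and Itga4, of the receptor of Vcam1, read 173 and 209 on the labelled knockout arrays with heme and with vehicle and 149 and 243 in wild type with heme and with vehicle.

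Around Cd163 and Cd5l, 11 or 12 of 16 hemoglobin-clearance and scavenger receptor genes were at level in each comparison. For heme in wild type 2 of the 16 passed 2-fold, both upward, against 1.17% of all genes at level. These were Hp, which encodes the hemoglobin-binding protein haptoglobin, and the scavenger receptor Marco. Hp alone passed for heme in the labelled knockout, and Marco alone, upward, for the labelled knockout in vehicle and with heme. The shares of all genes at level that were 2-fold higher in these comparisons were 1.2%, 0.525% and 0.519%. Hp read 390 and 125 on the labelled knockout arrays with heme and with vehicle, against 370 and 143 in wild type with heme and with vehicle, so its heme response was 1.64 in the labelled knockout and 1.37 in wild type. Marco read 898 and 605 on the labelled knockout arrays with heme and with vehicle, against 342 and 115 in wild type with heme and with vehicle. Around C6, 6 of 14 terminal complement genes and inhibitors were at level on any array, and 1 passed 2-fold, Cd59a, an inhibitor of the terminal complex, which was higher in the labelled knockout by 1.10 in vehicle and 1.52 with heme. Of the other components of the complex, Hc (complement C5), C7, C8a, C8b and C9 read between 5.70 and 14.7 on the 4 arrays. C8g was at level, with 35.2 and 49.1 on the labelled knockout arrays with heme and with vehicle, against 37.6 and 50.9 in wild type with heme and with vehicle.

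Of 23 Bach1 partners and reported targets, 9 were 2-fold higher and 1 lower for heme in wild type, 6 and 0 for heme in the labelled knockout, 3 and 0 for the labelled knockout in vehicle and 1 and 1 for the labelled knockout with heme. In the same order, the shares of all genes at level were 1.17% and 0.891%, 1.2% and 0.452%, 0.525% and 1.14%, and 0.519% and 0.973%. Between 19 and 22 of the 23 were at level in each of these comparisons. The list shares Hmox1, Slc40a1 and Blvrb with the wider programme. Its median log2 difference was 0.72 for heme in wild type, 0.31 for heme in the labelled knockout and 0.01 for the labelled knockout in vehicle. Over all genes these medians were -0.004, -0.02 and 0.01.

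Likeness to Spic was measured over the 4 arrays as the root mean square distance between log2 signals centred on each gene's own mean. Among 11154 other genes at level on any array, Slc40a1 was nearest (0.80), followed by Hmox1 (1.05), Treml4 (1.05), Marco (1.14), Sec24d (1.33) and Gclm (1.35). Sec24d encodes a coat protein of vesicles that leave the endoplasmic reticulum, and Gclm a subunit of the enzyme that starts glutathione synthesis. No gene was within 0.5, and the spread of Spic around its own mean was 2.08 on the same scale. The 6 genes were chosen for this likeness, so their shared low array is part of the choice. The list depends on the measure: once each pattern was scaled to unit length, 0 of the 6 were among the 6 nearest, and Slc40a1 ranked 264, Hmox1 58 and Treml4 747. The nearest, with predicted genes and clones left out of naming, were then Ccl11, Kdm5b and Bbs5. Itgad, the only other of the 6 genes at level, ranked 7178. The measure rests on 4 arrays and is a description.

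**Figure D4:**
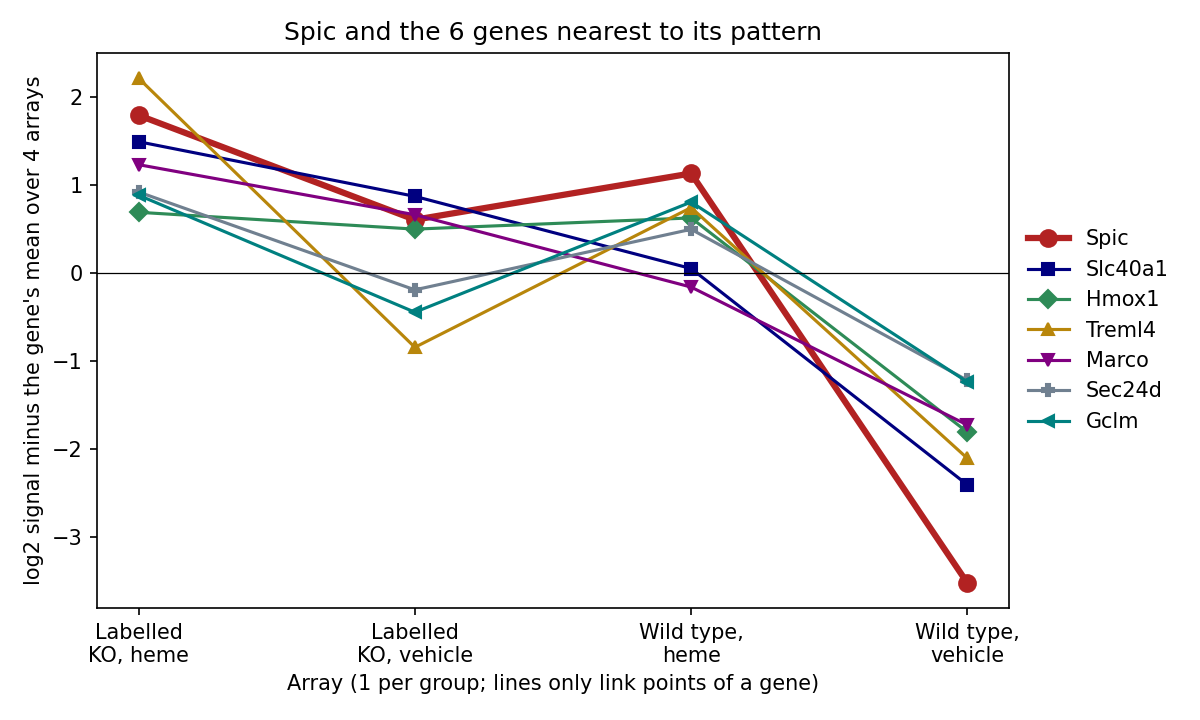
Log2 signal minus the mean over the 4 arrays for Spic (thick line) and the 6 genes nearest to it in root mean square distance; lines link the points of a gene and are not a time course. The 6 genes were chosen by this distance and are, like Spic, lowest in wild type with vehicle. Treml4, Sec24d and Gclm also read below their mean in the labelled knockout with vehicle, and Marco below its mean in wild type with heme.

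Markers of other cell types moved with some of these differences, and their part in the Spic result was not tested. For scale, between 0.452% and 1.2% of all genes at level passed 2-fold in each direction of a comparison of 2 arrays. Of 15 dendritic cell markers, 10 were at level. Of these, 7 were 2-fold lower in the labelled knockout in vehicle, and the same 7 with heme. They were H2-Ab1, H2-Eb1, Cd74, Ciita, Ccr7, Ccl17 and Ccl22. Itgax, Irf4 and Batf3 were lower by less than 2-fold, and Flt3, Zbtb46, Dpp4, Cd209a and Xcr1 were not at level. The summed signal of the 15 was 2570 and 3227 on the labelled knockout arrays with heme and with vehicle, against 8163 and 10188 in wild type with heme and with vehicle. Bright members such as Cd74 (829 to 3399) and H2-Ab1 (538 to 2088) carried this sum, so it does not follow the dimmer ones. All 11 macrophage markers measured were at level, and 0 were 2-fold higher in any comparison of 2 arrays. With heme in wild type 5 were 2-fold lower, Fcgr1, C1qa, C1qb, C1qc and Apoe, and Cd14 alone was above 0 (0.83). In the labelled knockout in vehicle 4 were 2-fold lower, Fcgr1, C1qa, C1qb and C1qc, while 4 of the 11 were above 0. For heme in the labelled knockout 0 were 2-fold lower, and for the labelled knockout with heme 1 was, C1qc (-1.52). C1qc read 103 and 170 on the labelled knockout arrays with heme and with vehicle, against 295 and 911 in wild type with heme and with vehicle. The summed signal of the 11 lay between 17305 and 19308 and was carried by Lyz2 (9990 to 10705) and Cd68 (3340 to 4222), so it does not follow the dimmer members. Of 16 neutrophil markers, 5 passed 2-fold upward for heme in wild type. In the labelled knockout 1 was higher in vehicle, Retnlg (1.36, and 0.90 with heme), and 1 was lower with heme, Cxcr2 (-1.22). The sums of the 16 were 12378 and 9655 on the labelled knockout arrays with heme and with vehicle, against 15195 and 11430 in wild type with heme and with vehicle. They were carried mainly by S100a8 (3213 to 5613) and S100a9 (2933 to 5186). Genes of stromal and endothelial cells, which can carry Vcam1, had 5 of 14 at level on any array and no signal above 66.7, and 10 erythroid markers none above 35.7. Lepr (-1.25) and Kdr (-1.04), both on the stromal and endothelial list, were 2-fold lower in the labelled knockout in vehicle, and Lepr also with heme (-1.65). No erythroid marker passed 2-fold. Of 19 markers of other tissue macrophages, 7 were at level on any array, and 3 of them passed 2-fold in a comparison of 2 arrays. Alox15 differed by -1.12 for heme in wild type. Id3 differed by -1.53 for heme in the labelled knockout and by 1.26 for the labelled knockout in vehicle. Car4, an alveolar macrophage gene, read 807 and 810 on the labelled knockout arrays with heme and with vehicle, against 2173 and 1617 in wild type with heme and with vehicle, and was 2.69-fold lower in the labelled knockout with heme. Chil3 and Fabp4, also genes of alveolar macrophages, read between 6059 and 7224 and between 1134 and 1734. The Kupffer cell genes Clec4f, Timd4 and Vsig4 read 23.6 or lower on every array.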

How the data were processed

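Gene expression was measured on 4 arrays of total RNA (biotin-labelled cRNA, Ovation PicoSL kit, per the labels), 1 per group. The values are linear intensity after RMA, which the authors ran before deposit, per the submitters' processing notes. The program version and the genome build are not given in the sources used here. RMA as usually run normalizes quantiles across arrays, and no scaling was added. The series' design text speaks of progenitors sorted from fetal liver chimeras, which the sample labels do not, and the labels were followed. The files hold no detection call, and the height of a dim probe set over background cannot be given, and the small number of arrays limits the precision.

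Of 35556 probe sets, 21789 had 1 gene symbol in the array annotation, 1621 several and 12146 were not listed. Symbols were updated through Entrez numbers (21698 matched GRCm38.p6). The probe set with the highest mean log2 signal stood for a gene. A gene was at level where the brightest array of a comparison reached the median of all values, and it was called at a 2-fold difference, with no p-value. The robust SD is the scaled median absolute deviation of log2 differences over all genes. The 14 gene lists held 276 entries, of which 20 were not analysed here. The genes, lists and tests were chosen with earlier results of these data known.

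Named were the 6 genes, Bach1, Spi1, Itgb2, Treml4, Slc40a1 and Hmox1, the 6 genes most like Spic, and up to 4 genes a list that were at level and 2-fold different. Adgre1, Mrc1, Itga4, the other complement components, Lyz2, Cd68, Chil3, Fabp4, the Kupffer cell genes and those nearest Spic at unit length fall outside this rule and were chosen after their values were seen. The same holds for Siglec1, Axl, Apoe, Cd14, S100a8, S100a9 and the dendritic cell markers other than Ccl17, Ccl22, H2-Eb1 and Cd74. Alternatives were 32 added to each signal, quantile normalization applied again, lowess centring, averaging the probe sets of each gene, no level filter or one at the 75th percentile (a signal of 106), and thresholds of 1.5-fold and 3-fold. The fold calls and the ranking by pattern were run on simulated data. For the fold calls, 3-fold changes were planted only in genes with a mean log2 signal above 6, where the median of all values is 4.95. That run therefore covers neither signals as low as Spic in wild type with vehicle nor those of Itgad. Values were computed with pandas 2.3.3 and numpy 2.4.6 in Python 3.11.15, lowess curves with statsmodels 0.14.6 and figures with matplotlib 3.10.9.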

Additional observations from a re-analysis of the deposited data

Results flagged for a closer look

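Vcam1 and Itgad had heme differences of opposite sign in the 2 genotypes. The labelled knockout response minus the wild-type response was -0.27 for Vcam1 and 0.26 for Itgad on the log2 scale, and the second probe set of Itgad had the opposite signs. By the same arithmetic, the difference between labelled knockout and wild type changed sign between heme and vehicle, by -0.27 for Vcam1 and 0.26 for Itgad. At C6 the labelled knockout was lower than wild type with heme and higher in vehicle, a change of -0.15. The robust SD of this difference of responses over all genes was 0.33, and with 1 array a group none of these differences was tested.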

How the results depend on the processing

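Quantile normalization applied again and lowess centring moved no Spic difference by more than the robust SD of all genes. Averaging probe sets says nothing about Spic, which has 1. No called difference of the 6 genes changed sign with 32 added, quantile normalization or lowess centring; the level filters and fold thresholds alter only calls. With 32 added to each signal, the Spic log2 difference was 3.23 for heme in wild type, 2.75 for the labelled knockout in vehicle and -2.13 for the difference of responses. These are smaller because the low wild-type vehicle value is raised by construction. At a 3-fold threshold 0 of the 6 genes passed for heme in the labelled knockout, and at 1.5-fold 1 passed for the labelled knockout with heme, in both cases through Spic. The other counts of genes at 2-fold were as reported. Of the 6 genes most like Spic, 0 were among the 6 nearest once each pattern was scaled to unit length, a form that ignores the size of the differences, and 5 were with 32 added. The 5 markers moved by more than the robust SD in 5 of 25 differences with 32 added and in 2 of 25 with the mean of probe sets, where the Itgad difference between the genotypes with heme was -0.13. No paired analysis was possible because each group holds 1 array without a replicate number. Signals near the bottom of the scale have no detection call, which limits Vcam1, Cd163, Cd5l and C6 on all arrays and Spic on the wild-type vehicle array.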
